A study of Homo sapiens with 6 samples.

Results

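Amino acid transporters of the plasma membrane are described here as they appear in a single deposited table of gene expression. The 10 genes were chosen by name, as carriers known from activated lymphocytes, although earlier results of these data were known. They are SLC7A5, SLC3A2, SLC1A4, SLC1A5, SLC7A1, SLC7A6, SLC38A1, SLC38A2, SLC43A2 and SLC6A6, and all 10 were found among the 33644 genes of the table by Ensembl gene identifier. The labels describe 3 samples of an alt-LAMA3 knockout line (alt-LAMA3 KO) derived from HEK293T and 3 samples of the wild-type HEK293T parent (WT), all untreated and at day 0. HEK293T is an established line of human embryonic kidney origin with the large T antigen of SV40, and the labels do not say whether the knockout is a single clone or whether the 3 samples of each line were grown apart. P-values may therefore measure technical spread alone.

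The table holds the result of 1 comparison and no value for any sample. Each gene has a mean normalized count over all libraries of the fit, a log2 fold change with its standard error (SE), and a p-value. Its header names neither group. Here "numerator group" stands for the side on which a positive log2 fold change means more mRNA, and "denominator group" for the opposite side. Neither could be assigned to the knockout or the wild type, and nothing below is a statement about the knockout. LAMA3, the locus in the name of the knockout, had a log2 fold change of -0.62 ± 0.69 (SE) at an adjusted p of 0.578 in the authors' deposited table, and gives no check of the groups. Mean levels appear to include libraries outside the comparison. A read in a single library gives many genes the same very low mean. There were 9 such values, 3 with positive, 3 with negative and 3 with zero log2 fold changes, where the labels give 6 samples. That is the pattern of 9 libraries with 3 on neither side, and the means and levels below would pool them.

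The labelled cell type was checked against marker genes. Of 14 T lymphocyte markers, 11 had a mean normalized count of at least 72.0, which is 5 per 1000000 of the summed means, and the list was led by IL2RA at 27989 in the authors' deposited table. Of 15 genes typical of HEK293-derived lines, 4 reached that level, led by VIM, an intermediate filament gene also used by lymphocytes, while SALL1, NEFM and NEFL were listed at 0. The data therefore go against the labelled cell type, and the transporters are described below for cells with abundant T lymphocyte mRNAs. Among 12 tested T lymphocyte markers, 8 were lower in the numerator group and 0 were higher, against 14.8% of all tested genes lower. These markers were called in 66.7%, against 29.5% of all tested genes in either direction. At a mean of 72.0 or more, which 11 of the 12 tested markers reached, 42.6% of all tested genes were called. Their part in the transporter results was not tested. Other blood cell markers reached 72.0 in 1 of 14 genes in the table, epithelial markers in 1 of 10, and fibroblast and endothelial markers in 2 of 12. Over all tested genes, 14.7% were higher and 14.8% lower. Of the tested markers, 2 of 7 for other blood cells were higher and 2 lower, 1 of 3 for epithelium was higher, 2 of 7 for fibroblasts and endothelium were higher and 1 lower, and 2 of 7 for HEK293-derived lines were higher and 2 lower. Their largest changes at a mean of 72.0 or more were those of CDH1 at a log2 fold change of 3.98 (SE 0.57), ITGAX at 2.61 (SE 0.18), PEG10 at 2.32 (SE 0.22), COL3A1 at -1.96 (SE 0.21) and NCAM1 at -1.61 (SE 0.10) in the authors' deposited table. Below that mean, CSF1R was called at 4.20 (SE 0.76), THY1 at 2.87 (SE 0.69), VWF at 2.54 (SE 0.96), FCGR3A at -1.36 (SE 0.33) and LYZ at -6.02 (SE 1.93) in the authors' deposited table. These markers were singled out after their values were seen. Their part in the transporter results was not tested either.

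Cells that grow and divide take up amino acids faster than they can make them, and lymphocytes are known to raise their transporters after activation. SLC3A2 is the heavy chain of CD98, a glycoprotein that brings transporting light chains such as SLC7A5 and SLC7A6 to the cell surface. SLC1A5, SLC38A1 and SLC38A2 carry glutamine with sodium, SLC7A1 carries arginine and lysine, and SLC6A6 carries taurine. Several of these genes are textbook targets of ATF4, the transcription factor of the amino acid response, and of MYC.

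The mRNAs of 8 of the 10 transporters were abundant, and the called changes between the groups were small. SLC1A5 and SLC3A2 were higher in the numerator group and SLC38A1 was lower, each by less than 1.5-fold. The other 6 tested transporters did not pass the adjusted p threshold of 0.05, and SLC43A2 was not tested. In bulk RNA, fewer cells of a type and less RNA per cell cannot be told apart. Calls were made for 3 of 9 tested transporters, or 33.3%, against 29.5% of the 13957 genes tested in the table. At a mean of 72.0 or more, 42.6% of 8312 genes were called, against 37.5% of the 8 transporters at that level, so that calls were about as frequent among the transporters as among genes in general. In the numerator direction the background was 14.7% of tested genes and in the other direction 14.8%. The median log2 fold change was -0.01 over the tested transporters and 0 over all tested genes. None of the 3 calls held in a test against a 1.5-fold change, which no gene with a change below 1.5-fold can pass. The call of SLC3A2 was also lost (adjusted p = 0.589) when every error was widened by 2.03, the robust spread of the deposited statistics. That spread was taken over all tested genes, changed ones included, so a call lost this way is not shown to be noise.

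**Figure D1:**
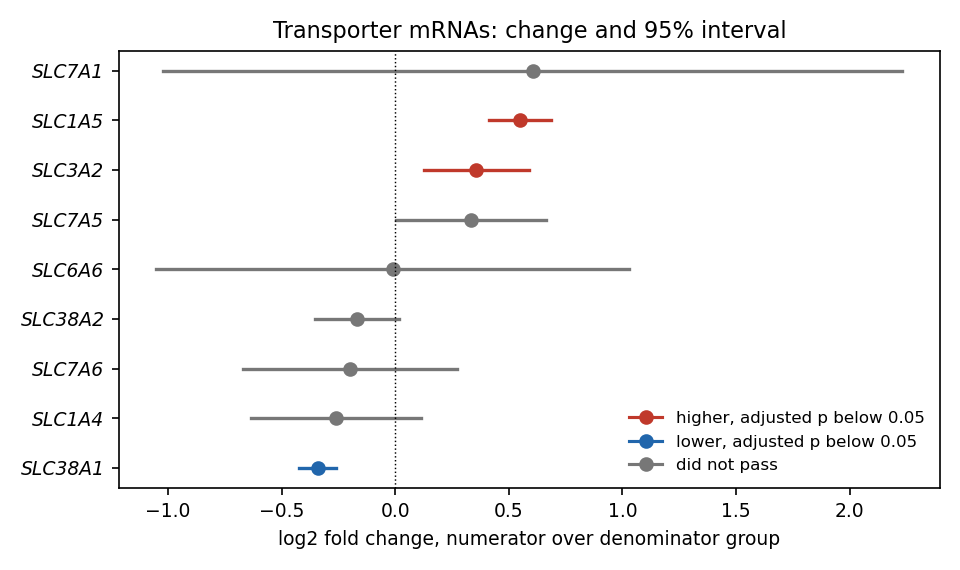
Log2 fold change (x axis, numerator over denominator group) of the 9 tested transporters, with points for the deposited value and lines for its 95% interval, coloured by the call at an adjusted p of 0.05. SLC1A5 and SLC3A2 lie to the right of 0 and SLC38A1 to the left, and the widest intervals are those of SLC7A1, which reaches 2.23, and SLC6A6.

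The glutamine carriers SLC1A5 and SLC38A1 had the highest means of the transporters, and SLC38A2 was lower. SLC1A5, a sodium-dependent exchanger of neutral amino acids on chromosome 19 (chr19:46774883-46788594, minus strand, GRCh38), had a mean normalized count of 6041 in the authors' deposited table. Its log2 fold change was 0.55 ± 0.07 (SE) at an adjusted p of 9.63e-14 in the authors' deposited table, which is 1.46-fold with a 95% interval of 1.33 to 1.61. SLC1A5 thus had the largest change among the transporters that passed. An annotated antisense RNA, AC008622.2, overlaps 23.4% of its exon bases and has no value used here. SLC1A4, its family member, which exchanges alanine, serine and cysteine, stood at a mean normalized count of 731 and a log2 fold change of -0.26 ± 0.19 (SE) at an adjusted p of 0.340 in the authors' deposited table. The log2 fold change of SLC1A5 exceeded that of SLC1A4 by 0.81, with a 95% interval of 0.41 to 1.21. This and the other intervals between a pair of genes take their errors as independent, although both genes were read from the same libraries.

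SLC38A1, a sodium-coupled carrier of glutamine and other small neutral amino acids on chromosome 12 (chr12:46183063-46270017, minus strand), had the highest mean of the transporters, 16667 normalized counts in the authors' deposited table. It was lower in the numerator group, with a log2 fold change of -0.34 ± 0.04 (SE) at an adjusted p of 4.34e-15 in the authors' deposited table, or 0.790-fold with a 95% interval of 0.746 to 0.835. Its neighbour on the chromosome, SLC38A2, known as the carrier that cells raise when amino acids are short, had a mean normalized count of 1092 and a log2 fold change of -0.17 ± 0.09 (SE) at an adjusted p of 0.184 in the authors' deposited table. The difference between SLC38A1 and SLC38A2 was -0.17, with a 95% interval of -0.37 to 0.03, which includes 0. A difference in change between these genes was therefore not resolved, whereas the mean of SLC38A1 per kb of exons was 10.1 times that of SLC38A2.

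SLC3A2, the heavy chain of CD98, passed the threshold, and its light chains SLC7A5 and SLC7A6 did not. SLC3A2 (chr11:62856102-62888875, plus strand) had a mean normalized count of 2168 and a log2 fold change of 0.36 ± 0.12 (SE) at an adjusted p of 0.0104 in the authors' deposited table, or 1.28-fold, with a 95% interval of 0.13 to 0.59 on the log2 scale. SLC7A5 (chr16:87830023-87869488, minus strand), the light chain that carries leucine and other large neutral amino acids, had a mean normalized count of 1244 and a log2 fold change of 0.33 (SE 0.17) in the authors' deposited table. Its unadjusted p of 0.0485 became an adjusted p of 0.131 in the authors' deposited table, so it did not pass. The log2 fold changes of SLC7A5 and SLC3A2 differed by -0.02, with a 95% interval of -0.43 to 0.38. That interval is wide enough for a difference in either direction. The pseudogene SLC7A5P1, whose reads may be hard to separate from those of SLC7A5, had a mean of 10.0 in the authors' deposited table.

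SLC7A6, the light chain that exchanges arginine for glutamine and sodium, had a mean normalized count of 569 and a log2 fold change of -0.20 ± 0.24 (SE) at an adjusted p of 0.617 in the authors' deposited table. It lay below SLC3A2 by 0.56 on the log2 scale, with a 95% interval of -1.08 to -0.03 for SLC7A6 minus SLC3A2, the interval of 1 among 5 pairs compared and without adjustment over them. SLC7A5 minus SLC7A6 was 0.53, with a 95% interval of -0.04 to 1.11. SLC7A6 shares 44.4% of its exon bases with SLC7A6OS on the opposite strand, and reads of the pair cannot be told apart unless strand was counted, which the labels do not state. The mean of SLC7A6OS was 53.4 normalized counts in the authors' deposited table, well under that of SLC7A6.

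Other light chains that pair with SLC3A2 differed widely in level. SLC7A11, the cystine and glutamate exchanger, had a mean normalized count of 3517 and a log2 fold change of 1.09 ± 0.10 (SE) at an adjusted p of 5.47e-26 in the authors' deposited table. No other light chain of CD98 examined here passed, as SLC7A5, SLC7A6 and SLC7A7 missed the threshold and SLC7A8 and SLC7A10 were not tested. SLC7A7, the light chain of epithelia and macrophages that exports cationic amino acids, had a mean of 8.27 normalized counts and a log2 fold change of 0.75 ± 0.96 (SE) at an adjusted p of 0.640 in the authors' deposited table. SLC7A8, a carrier of neutral amino acids, had a mean of 1.28 with no adjusted p in the authors' deposited table, and SLC7A10 was listed at 0.

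SLC6A6, the sodium- and chloride-dependent carrier of taurine on chromosome 3 (chr3:14402576-14489349, plus strand), stood apart in its error. Its mean normalized count was 1955 and its log2 fold change -0.01 ± 0.53 (SE) at an adjusted p of 0.994 in the authors' deposited table. The 95% interval of -1.05 to 1.03 covers changes of up to 2.04-fold upward and 0.483-fold downward, so that a change of this size was not detectable. Among the 1396 tested genes in the same decile of the mean, the median SE was 0.08, which makes that of SLC6A6 6.41 times the median. A larger SE was found for 0.0716% of those genes. The values per library that would show which libraries differ are not analysed here.

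The SE was also above the median of genes of like level for most of the other transporters. It was 2.16 times the median for SLC7A6, 2.04 times for SLC7A5, 1.71 times for SLC1A4 and 1.42 times for SLC3A2. For SLC1A5 and SLC38A2 it was 1.18 and 1.14 times the median. SLC38A1, at 0.696 times, and SLC7A1, at 0.902 times, lay below it. Of the abundant transporters that did not pass, SLC6A6, SLC7A6, SLC7A5 and SLC1A4 thus had the widest errors for their level.

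**Figure D2:**
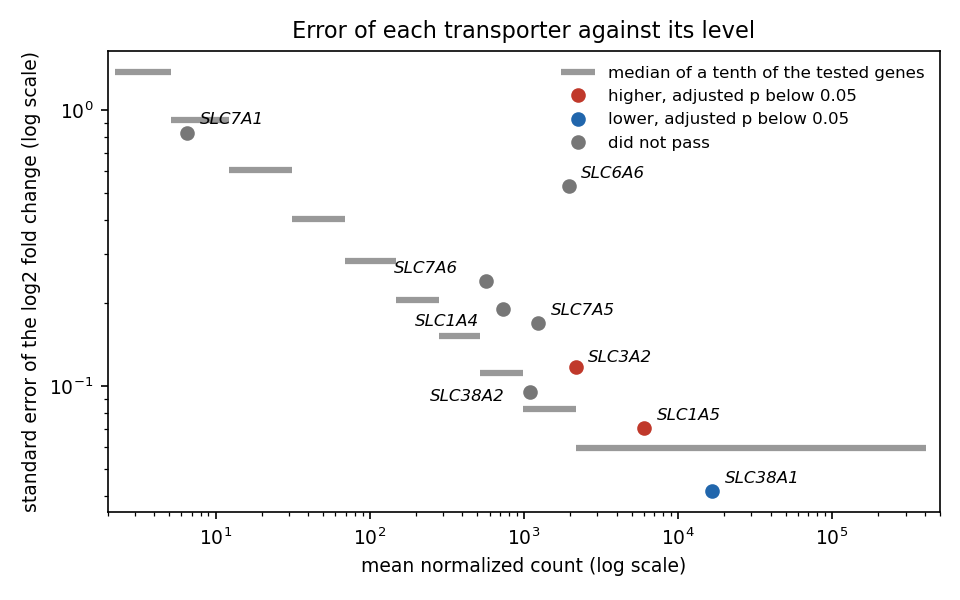
SE of the log2 fold change (y axis, log scale) against the mean normalized count (x axis, log scale) for the 9 tested transporters, coloured by call, with grey bars for the median SE in each decile of the 13957 tested genes. SLC6A6 lies far above the bar for its level, at 6.41 times the median, and SLC38A1 lies below.

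SLC7A1 and SLC43A2 had the lowest means of the transporters. SLC7A1, the main carrier of arginine and other cationic amino acids in most cells, had a mean normalized count of 6.54 and a log2 fold change of 0.60 ± 0.83 (SE) at an adjusted p of 0.670 in the authors' deposited table. Its 95% interval of -1.02 to 2.23 leaves both directions possible. SLC43A2, a facilitator of large neutral amino acids, had a mean of 1.18 in the authors' deposited table, with a change of exactly 0 (log2), the largest SE of the table (4.08) and no adjusted p. A change of exactly 0 at a mean above 0 was shared by 780 genes. These included all genes at the 3 single-read values on neither side of the comparison. The reads of SLC43A2 thus probably came from libraries outside the comparison, and its 0 is no measure of change. Whether these low means count all reads of SLC7A1 and SLC43A2 is not known from the table.

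Levels were compared between genes per kb of exons, from the union of annotated exons in GENCODE 29. SLC1A5 had 1813 and SLC38A1 1664 mean normalized counts per kb, which placed them above 99.0% and 98.9% of the 21064 genes with a mean above 0. SLC3A2 followed with 419, SLC7A5 with 262, SLC6A6 with 237 and SLC38A2 with 165 per kb. SLC1A4 had 105 and SLC7A6 75.0 per kb, so that the 8 abundant transporters spanned a 24.2-fold range. SLC7A1, at 0.851 per kb, and SLC43A2, at 0.111, lay below the median of those genes, 6.48 per kb. The spread over samples is not known, so neighbours in this order cannot be called different. The means also appear to pool 3 libraries on neither side of the comparison, so these levels are not those of the compared groups alone. With the median annotated transcript as length, the order began with SLC38A1, SLC3A2 and SLC1A5, and SLC7A5 moved to place 8.

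**Figure D3:**
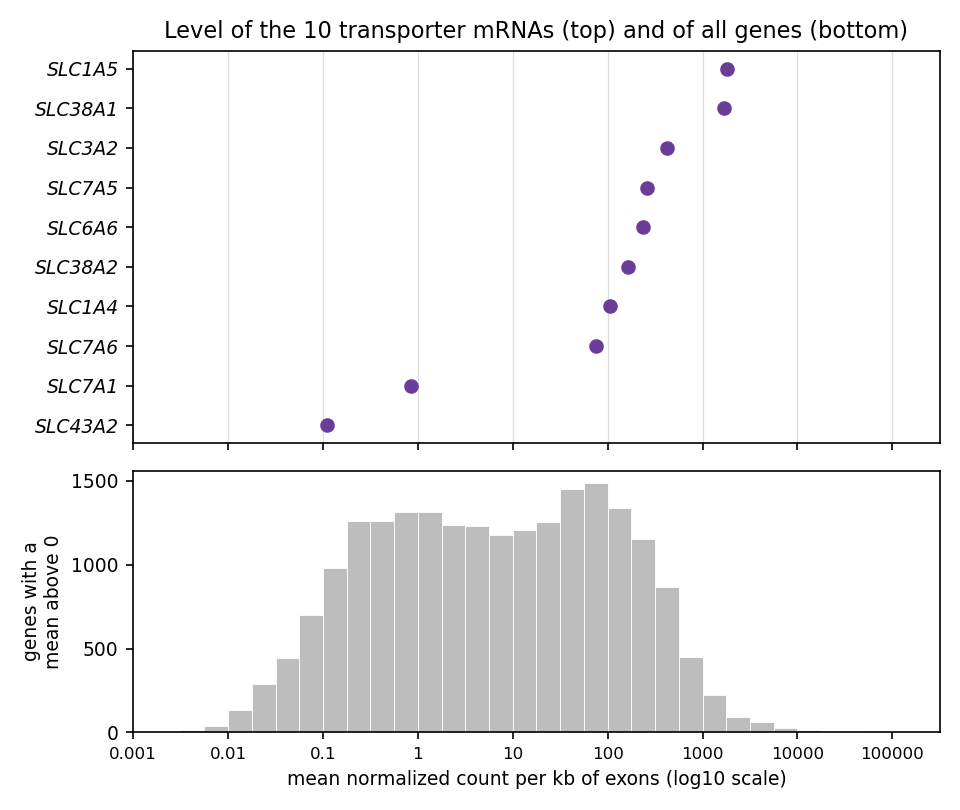
Mean normalized count per kb of exons (x axis, log10 scale) of each of the 10 transporters (top) and the number of genes at each level among the 21064 genes with a mean above 0 (bottom). The 8 abundant transporters sit in the upper part of the distribution, from 75.0 to 1813 per kb, and SLC7A1 and SLC43A2 sit in its lower part.

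The promoters were searched for letters known from the amino acid response, because ATF4 itself was higher in the numerator group, as given below. RefSeq promoter windows on GRCh38.p14, from 250 bases before to 50 bases after each annotated start, were used for 9 of the 10 transporters (not SLC6A6), in 17 windows, since some genes have several starts. The motif TGATGNAA, bound by ATF4 with a C/EBP partner, was sought on both strands and found in 5 of those 9 genes, in 5 of 17 windows. Over all windows it was found in 3.62% of 35116 windows and 4.46% of 27305 genes. The matches are printed from 5′ to 3′ on the strand of the gene, with the motif or its reverse complement in capitals, and the window of ASNS, a textbook ATF4 target, is shown for comparison.
SLC1A4 (chr2:64989381-64989410): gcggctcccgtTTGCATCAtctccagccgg
SLC3A2 (chr11:62881725-62881748): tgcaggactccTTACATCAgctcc
SLC38A1 (chr12:46266502-46266531): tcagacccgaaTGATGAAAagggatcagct
SLC7A1 (chr13:29595663-29595692): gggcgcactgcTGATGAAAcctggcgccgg
SLC1A5 (chr19:46784893-46784922): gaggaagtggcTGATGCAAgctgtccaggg
ASNS (chr7:97872458-97872487): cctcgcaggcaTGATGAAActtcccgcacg

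The genes with a match included SLC1A5 and SLC3A2, which were higher in the numerator group, SLC38A1, which was lower, and SLC1A4 and SLC7A1, which did not pass. A match therefore did not go with a single direction of change. In SLC1A4, SLC38A1, SLC3A2 and SLC7A1 the motif lay across or just after an annotated start, and in SLC1A5 it began 97 bases before an alternative start. Only that last match lay wholly upstream, which is 1 of 9 genes, against 3.89% of all genes searched in the same way. SLC7A11 was also searched as a comparison gene, and no match was returned for it. The E-box CACGTG, the palindrome bound by MYC with MAX, was found in 2 of the 9 genes and 2 of 17 windows, against 8.77% of all genes and 7.26% of all windows, and is shown for the light chain SLC7A5 and for an alternative start of SLC1A5.
SLC7A5 (chr16:87869621-87869648): gccggacgacgCACGTGctccgagctgg
SLC1A5 (chr19:46787327-46787354): gcgggagtggtCACGTGgacaggacggg

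Regulators of these genes were examined next. ATF4 had a mean normalized count of 8517 and a log2 fold change of 0.51 ± 0.06 (SE) at an adjusted p of 2.33e-14 in the authors' deposited table. Among 14 tested kinases, transcription factors and other regulators or targets of the integrated stress response, 2 were called higher, 1 lower and 11 did not pass, at a median log2 fold change of -0.12. The called share was 21.4%, against 29.5% of all tested genes. The other gene that was higher was ATF3, a stress-induced factor, at 1.33 (SE 0.53 and adjusted p = 0.0424), and the gene that was lower was CEBPB, a C/EBP partner of ATF4, at -0.54 (SE 0.18 and adjusted p = 0.0110), both in the authors' deposited table. MYC was higher, with a mean normalized count of 2566 and a log2 fold change of 0.73 ± 0.14 (SE) at an adjusted p of 3.07e-06 in the authors' deposited table. Of 10 tested genes of the MYC and MAX network, 2 were higher and 3 were lower. That is 50% called, against 29.5% of all tested genes, a difference that was not tested. Its repressor members went apart, with MXD3 at 0.58 (SE 0.12) and MXD4 at -0.89 (SE 0.27) in the authors' deposited table. Of these 6 genes, only ATF4 kept its call with widened errors, where MYC had an adjusted p of 0.110, and none kept it against a 1.5-fold change.

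**Figure D4:**
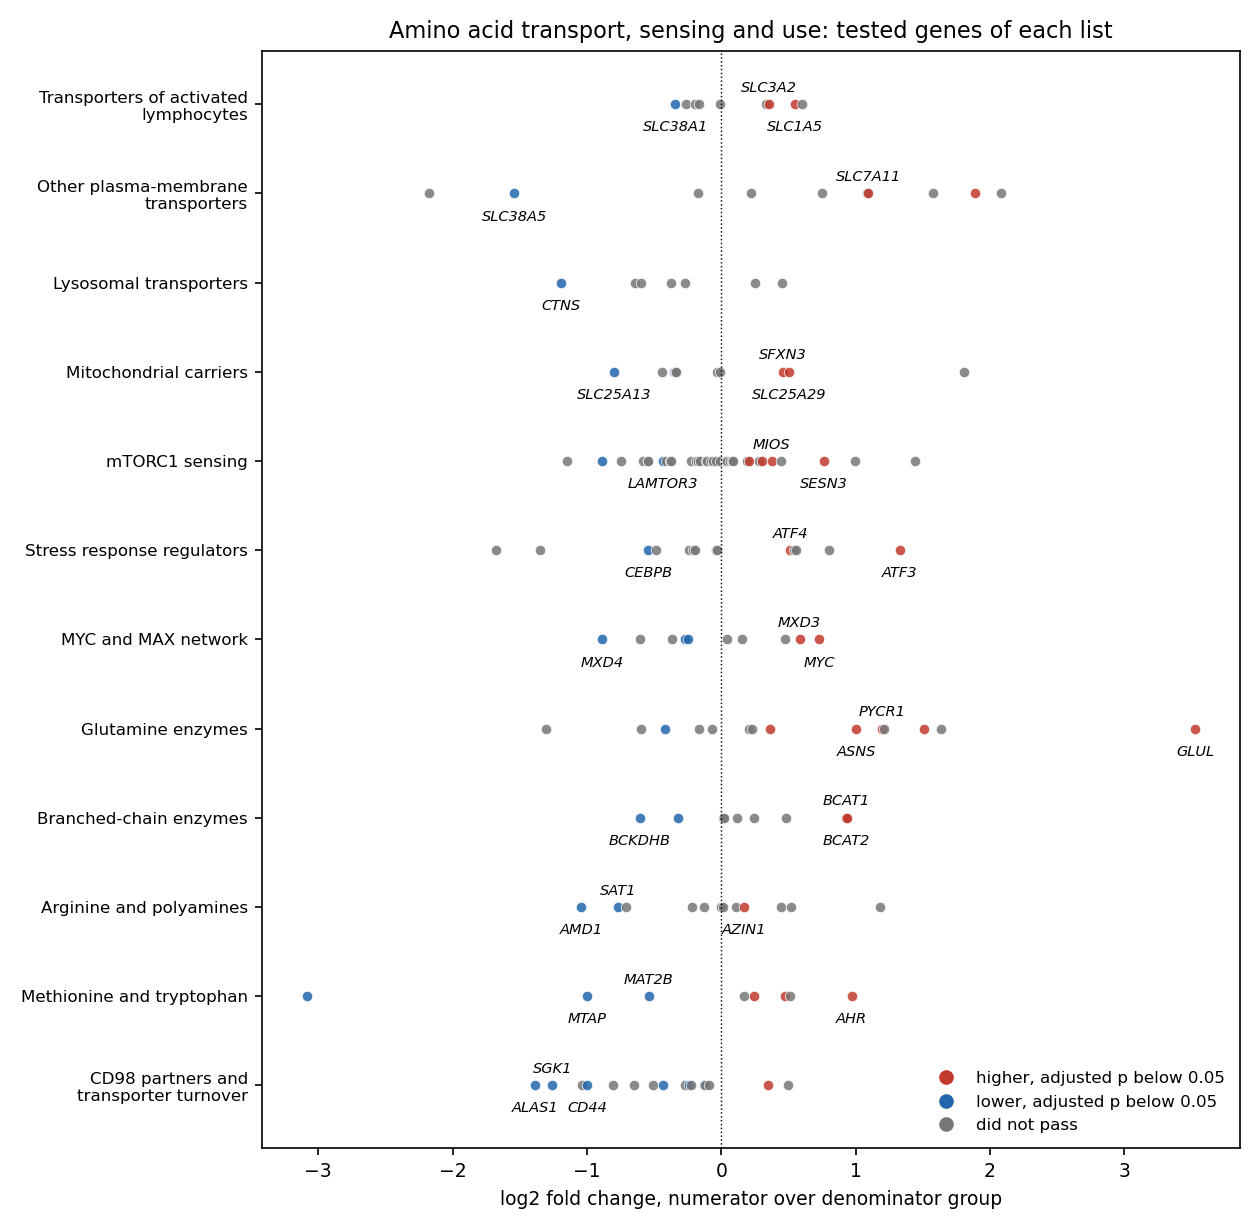
Log2 fold change (x axis, numerator over denominator group) of every tested gene in each list of amino acid transport, sensing and use (rows), coloured by call at an adjusted p of 0.05, with names for called transporters and for up to 3 called genes per other list with a mean of at least 72.0. The changes of the transporters lie between -0.34 and 0.60, whereas GLUL stands far to the right at 3.53.

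The enzymes that make or use glutamine were led by GLUL. This gene encodes glutamine synthetase, and its mean normalized count was 4019 with a log2 fold change of 3.53 ± 0.11 (SE) at an adjusted p of 1.67e-231 in the authors' deposited table. ASNS, which makes asparagine from glutamine, was at 1.01 (SE 0.10) and PYCR1, an enzyme of proline synthesis, at 1.20 (SE 0.17) in the authors' deposited table. Of 14 tested genes in this list, 5 were called higher, 1 lower and 8 did not pass, at a median log2 fold change of 0.30. The called share was 42.9%, against 29.5% of all tested genes, and this difference was not tested. GLUL, ASNS and PYCR1 kept their calls against a 1.5-fold change.

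Branched-chain amino acids, the substrates of SLC7A5 and SLC43A2, are first transaminated and then oxidised. Both transaminases were higher, the cytosolic BCAT1 at a log2 fold change of 0.93 ± 0.09 (SE) at an adjusted p of 5.15e-25 and the mitochondrial BCAT2 at 0.93 (SE 0.30 and adjusted p = 0.00967) in the authors' deposited table. BCKDHB, a subunit of the dehydrogenase complex that follows, was lower at -0.61 (SE 0.11) in the authors' deposited table. Of 9 tested genes, 2 were higher and 2 were lower, with a median of 0.12. That is 44.4% called, against 29.5% of all tested genes, a difference that was not tested. Only BCAT1 kept its call with widened errors, where BCAT2 had an adjusted p of 0.580 and BCKDHB 0.0543.

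Genes that use arginine, the substrate of SLC7A1, and those that make polyamines from it had 1 of 12 tested members higher and 2 lower, with a median of 0.01. That is 25% called, against 29.5% of all tested genes. SAT1, the enzyme that marks polyamines for export, was at -0.77 (SE 0.08) and AMD1, which supplies the aminopropyl groups, at -1.04 (SE 0.26) in the authors' deposited table. AZIN1, an inhibitor of antizyme, was at 0.17 (SE 0.06) in the authors' deposited table. In the methionine and tryptophan list, 3 of 8 tested genes were higher and 3 were lower, with a median of 0.20. That is 75% called, against 29.5% of all tested genes, a difference that was not tested. MTAP, which recycles methionine, was at -0.997 (SE 0.14), MAT2B, a regulatory subunit of S-adenosylmethionine synthesis, at -0.54 (SE 0.15), and AHR, the receptor for kynurenine, at 0.97 (SE 0.23) in the authors' deposited table. SAT1 and MTAP kept their calls with widened errors, and AMD1, AZIN1, MAT2B and AHR did not (adjusted p from 0.260 to 0.694).

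Sensing of amino acids upstream of mTORC1, the growth kinase that their uptake supports, was examined in 35 tested genes, subunits of mTORC1 included. Of these, 4 were called higher, 2 lower and 29 did not pass, at a median log2 fold change of -0.06. The called share was 17.1%, against 29.5% of all tested genes, and this difference was not tested. SESN3, a member of the leucine-sensing sestrins, was at 0.77 (SE 0.09 and adjusted p = 3.64e-16), MIOS, a subunit of GATOR2, at 0.37 (SE 0.11) and LAMTOR3, a Ragulator scaffold of the lysosome, at -0.43 (SE 0.08) in the authors' deposited table. CASTOR1, the arginine sensor, did not pass at -0.18 (SE 0.17 and adjusted p = 0.498) in the authors' deposited table. MIOS and LAMTOR3 lost their calls with widened errors (adjusted p = 0.500 and 0.104) and SESN3 lost its call only against a 1.5-fold change (adjusted p = 0.570).

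Other carriers of amino acids were mostly at low levels or did not pass. The called shares were 30% for further plasma-membrane transporters, 14.3% for lysosomal transporters and 40% for mitochondrial carriers, against 29.5% of all tested genes. Of 33 further plasma-membrane transporters, 32 were in the table, 11 of them listed at 0, and 10 were tested, of which 2 were higher and 1 was lower, with a median of 0.92. The gene that was lower was SLC38A5, a carrier of glutamine and histidine, at -1.54 (SE 0.34 and adjusted p = 5.74e-05) with a mean of 134 normalized counts in the authors' deposited table. Of 7 tested lysosomal transporters, 1 was lower and 0 were higher, namely CTNS, the cystine exporter of lysosomes, at -1.19 (SE 0.18 and adjusted p = 6.63e-10) in the authors' deposited table. Of 10 tested mitochondrial carriers, 2 were higher and 2 were lower. They included SLC25A13, an exchanger of aspartate and glutamate, at -0.80 (SE 0.17), SLC25A29, a carrier of basic amino acids, at 0.50 (SE 0.13) and the sideroflexin SFXN3 at 0.46 (SE 0.07) in the authors' deposited table. SLC38A5, SLC25A13 and SLC25A29 lost their calls with widened errors (adjusted p = 0.206, 0.159 and 0.315), and SFXN3 lost its call only against a 1.5-fold change.

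In a list of CD98 partners and regulators of transporter turnover, 6 of 16 tested genes were lower and 1 was higher, with a median of -0.35, against 14.8% of all tested genes lower. Without ALAS1, an enzyme that the list also holds, 5 of 15 were lower, with a median of -0.27. CD44, a surface glycoprotein found with CD98, was at -0.998 (SE 0.12) and SGK1, a kinase that keeps transporters at the membrane by restraining a ubiquitin ligase, at -1.26 (SE 0.20) in the authors' deposited table. ALAS1, the first enzyme of heme synthesis, was at -1.39 (SE 0.12) in the authors' deposited table. It is not known for transporter turnover. CD44, SGK1 and ALAS1 kept their calls against a 1.5-fold change.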

How the data were processed

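Per the labels' protocols, a SMARTer mRNA kit was used to prepare libraries from total RNA. The submitters' processing notes list STAR and Salmon as tools and hg38 as build, but neither versions nor steps. What computed the deposited table, and with which model, is not stated. Its columns are, per the file headers, a mean normalized count (treated as a signal), a log2 fold change and its SE on the log2 scale, a Wald statistic (a score), a p-value and an adjusted p-value, under the column names of a DESeq2 results table. The authors' deposited adjusted p was used for every call, since no value per sample was analysed and no model could be refitted. Depth per library is unknown. Gene identifiers were matched without version (33483 of 33644 named), and 8 of the 10 transporters had the version of GENCODE 29 and 2 an older one.

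Intervals of 95% are the deposited log2 fold change plus and minus the normal quantile times the SE. Level per kb is the mean divided by the exon union. All steps were run in Python 3.11.15 with numpy 2.4.6, pandas 2.3.3, scipy 1.17.1 and matplotlib 3.10.9, and the adjustment and the test against a 1.5-fold change were tested on simulated data. The transporters and the related lists were chosen with earlier results of these data known. Named genes were all 10 transporters, up to 3 called genes per related list with the largest change and a mean of at least 72.0, and 8 partners or regulators fixed by name, of which SESN2 was not analysed here. A further gene fixed by name is not reported here. Alternatives were adjustment over other sets of genes, a test against a 1.5-fold change, errors widened by the robust spread of all statistics (2.03), centring on the median gene, other gene lengths and upstream promoter bases only.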

Additional observations from a re-analysis of the deposited data

How the results depend on the processing

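Against a 1.5-fold change, 0 transporters were called higher and 0 lower, as a gene with a smaller change cannot pass that test. With widened errors 1 was called higher, since SLC3A2 had an adjusted p of 0.589, while SLC1A5 and SLC38A1 kept their calls. The 3 calls and their directions were kept under adjustment over every gene with a p-value, over genes with a mean of at least 72.0 and over protein-coding genes, and under centring on the median gene, which lay at -0.01. Of the 30 other named genes that were called, 9 kept their calls against a 1.5-fold change and 14 with widened errors, and ATF3 also lost its call when adjusted over every gene with a p-value (adjusted p = 0.0641). Over all tested genes, 653 genes were called against a 1.5-fold change and 1196 with widened errors, against 4120 as deposited. The motif TGATGNAA was found in 1 transporter gene, not 5, when only bases upstream of the start were searched, because the other matches lie across or after the start. Over all genes that search found it in 3.89%. No paired analysis was possible because the table holds no values per sample, and for the same reason replicates could not be left out and no other normalization or tool could be run. SLC7A1 had a mean of 6.54 and a wide interval, and depth per library is unknown.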
